A study of Homo sapiens with 16 samples.

Results

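The comparison described here is TOP2B occupancy in METTL7A knockout PC9 cells against wild-type PC9 cells, both after long-term osimertinib. PC9 cells are an established line from a human lung adenocarcinoma with mutant, constitutively active EGFR. One group was wild type and the other METTL7A knockout; both received osimertinib in doses that started at 100 nM and were escalated over 6 to 8 weeks, and both were profiled by CUT&RUN with an antibody against TOP2B. Each group had 2 replicate libraries, and the authors deposited 1 list of intersected peaks for the pair of libraries. The members are all intervals of these lists on chromosomes 1 to 22, that is 9632 in wild type and 7168 in the knockout, 16800 of the 44922 intervals in the 4 lists of the series. The other lists are the untreated wild type with 15018 intervals on the same chromosomes and the untreated knockout with 12141. The labels do not say whether the knockout cells were 1 clone or a pool, and whether the replicates came from separate cultures is not stated. Since the METTL7A locus itself was not looked at, nothing here checks the genotype labels.

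TOP2B is the beta isoform of DNA topoisomerase II. The enzyme cuts both strands of a DNA duplex, passes another duplex through the gap and reseals it, which relieves the twist and tangles that build up when genes are transcribed and chromatin loops are formed. It is present in dividing and non-dividing cells, unlike its paralog TOP2A, which is abundant in dividing cells. METTL7A is a membrane-associated member of the methyltransferase-like family. Osimertinib is an inhibitor of mutant EGFR, the receptor tyrosine kinase on which PC9 growth depends. In CUT&RUN an antibody directs a nuclease to its target, and the DNA released around it is sequenced.

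An interval is a stretch of DNA in a deposited list, and a called peak is the SEACR peak from which it came. Several intervals can belong to 1 called peak. Each condition has 1 list, so no difference between the lists could be tested against a spread between replicates. The 95% intervals of shares (exact Clopper-Pearson) and of ratios (exact conditional) cover counting error only, and neighbouring intervals are not independent. The lists hold no read counts, so library depth is unknown. All positions are on GRCh37 and count from 1.

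The treated lists resembled each other in the median width of their intervals and differed in number and in their called peaks. Median width was 1200 bp in wild type (interquartile range 950 to 1450) and 1150 bp in the knockout (800 to 1500). The wild-type intervals covered 12.0 Mb and the knockout intervals 8.82 Mb. The knockout list had 0.744 times as many intervals as the wild-type list, 0.886 times as many called peaks (5845 and 6597) and 0.733 times the covered length. Split called peaks contributed 49.9% of the wild-type list, with up to 18 pieces to a peak, and 32.3% of the knockout list, with up to 11. From first to last interval, called peaks spanned a median of 1350 bp in wild type and 1250 bp in the knockout. The upper quartiles of this span were 2950 and 1850 bp. The median maximum of the called peak, that is the highest coverage in it, was 11 steps of 0.0535 in wild type and 8 steps of 0.0379 in the knockout. A step is the smallest unit of the coverage in a list, and since the sources used here do not give its scaling, maxima are given only as multiples of the median of their own list. The lowest maximum that entered a list was 5 steps in wild type and 4 in the knockout. The median area of the called peak was 2135 in wild type and 387 in the knockout, also in units of unknown scaling.

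Knockout intervals were more concentrated in the densest regions of their list, treated and untreated. The number of occupied windows also depends on list length, which was not made equal here, and called peaks were not counted. Treated, they lay in 760 windows of 1 Mb against 943 for wild type, and 49 windows held 50% of the knockout list against 113 for wild type. The 10 densest windows of each list held 17.0% of the knockout intervals and 9.90% of the wild-type intervals. In the untreated lists the values of the knockout and wild type were 963 and 1045 occupied windows, 71 and 102 windows for 50% of the list, and 11.9 and 7.56% in the 10 densest. The densest window of the knockout was 55 to 56 Mb of chromosome 7, the chromosome that carries EGFR, with 159 knockout and 69 wild-type intervals. The densest of wild type was 1 to 2 Mb of chromosome 5, the chromosome that carries the telomerase gene TERT, with 173 wild-type and 20 knockout intervals. Chromosomes are named with genes they carry as background, and no interval was assigned to a gene.

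Knockout and wild-type intervals under osimertinib lay mostly at different positions. Of the wild-type intervals, 1010 (10.5%, 95% interval 9.88 to 11.1) overlapped a knockout interval by at least 1 bp and so had a counterpart, and 8622 (89.5%) had none. Of the knockout intervals, 1003 (14.0%, 13.2 to 14.8) had a counterpart and 6165 (86.0%) had none. In bases, 0.888 Mb were covered by both lists, which is 7.39% of the wild-type length, 10.1% of the knockout length and 4.45% of the length covered by either. In the untreated pair the shares with a counterpart were 34.6% (33.8 to 35.3) in wild type and 53.2% (52.3 to 54.1) in the knockout, and 18.6% of the length covered by either list was covered by both. Untreated intervals were wider, with medians of 2600 bp in wild type and 1650 bp in the knockout, and covered 47.5 and 22.4 Mb. The part of width in the overlap was not tested, nor was the difference between the treated and the untreated pair.

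Many intervals without a counterpart were far from any interval of the other genotype. The median distance from a wild-type interval without a counterpart to the nearest knockout interval was 105 kb (interquartile range 17.1 to 530), and 16.7% of such intervals were more than 1 Mb away. From a knockout interval without a counterpart to the nearest wild-type interval it was 28.1 kb (6.4 to 159), and 8.74% were more than 1 Mb away. A gap of at most 1 kb separated 4.27% of the wild-type and 6.83% of the knockout intervals without a counterpart from the other list, and a gap of at most 10 kb separated 19.2 and 31.9%. In the untreated pair the same medians were 11.8 kb for wild type and 6.35 kb for the knockout.

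**Figure D1:**
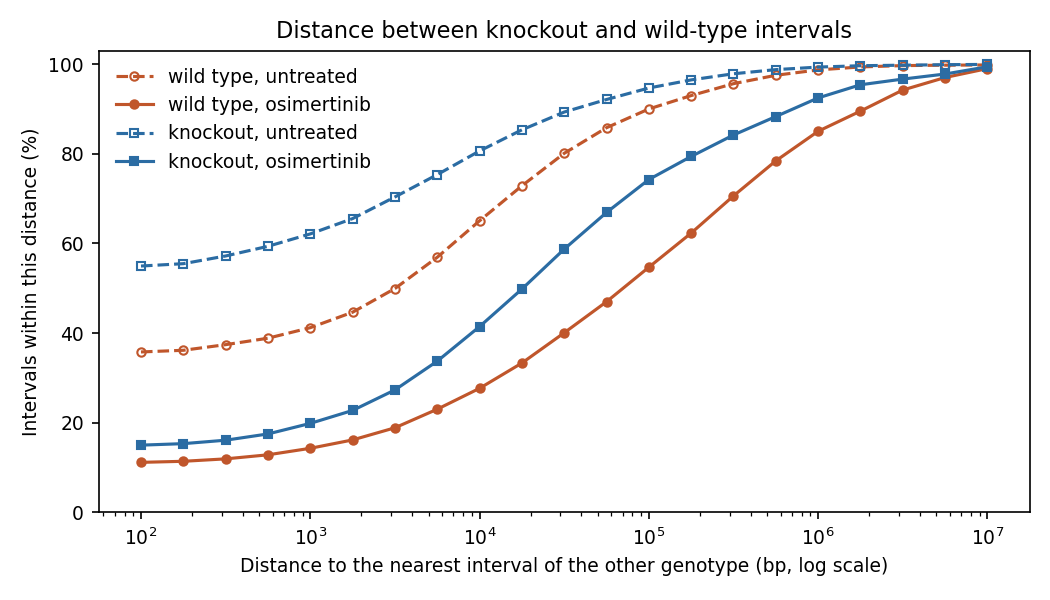
Cumulative share of intervals (vertical axis, %) that lie within a given distance (horizontal axis, bp, log scale) of the nearest interval of the other genotype, for wild type (circles) and knockout (squares), treated (filled, solid line) and untreated (open, dashed line). Within 100 kb lie 54.7% of the treated wild-type and 74.3% of the treated knockout intervals, against 90.0 and 94.7% in the untreated pair.

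Whole chromosomes held different shares of the treated lists. Of the 20 chromosomes with at least 20 intervals in either list, 4 were over-represented in the knockout by 2-fold or more, 7 were under-represented by as much, and 9 lay between. In the untreated pair, 0 of these chromosomes were at least 2-fold higher and 1, chromosome 17, at least 2-fold lower. The order of the chromosomes by the ratio of treated shares began with chromosome 7 at 4.24 (3.77 to 4.78), followed by chromosome 20 at 3.56 (3.23 to 3.93), chromosome 14 at 3.31 (2.77 to 3.97) and chromosome 1 at 2.32 (2.06 to 2.60). The intervals of chromosomes 20 and 14 in this order overlap, and so do those of chromosomes 7 and 20. It ended with chromosome 17 at 0.0789 (0.0601 to 0.102), chromosome 22 at 0.118 (0.0632 to 0.204), chromosome 5 at 0.143 (0.121 to 0.167), chromosome 9 at 0.304 (0.247 to 0.370) and chromosome 3 at 0.409 (0.345 to 0.484). Chromosomes 4 and 6 were also below the threshold but held under 100 intervals in each list.

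In counts, chromosome 17 held 1056 wild-type and 62 knockout intervals, and chromosome 5 held 1619 and 172. Chromosome 20 held 563 and 1490, and chromosome 7 held 366 and 1155. Chromosome 17, which carries TOP2A and the receptor gene ERBB2, was also the autosome with the lowest untreated ratio among those with at least 20 intervals, 0.274 (0.219 to 0.341). Chromosomes 7 and 5 had untreated ratios of 1.03 (0.955 to 1.10) and 0.765 (0.676 to 0.865). Chromosomes 8, 16, 12 and 19 held similar shares in the treated lists, with ratios of 1.03, 1.09, 0.892 and 1.18, although chromosomes 16 and 19 differed in opposite directions along their length.

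**Figure D2:**
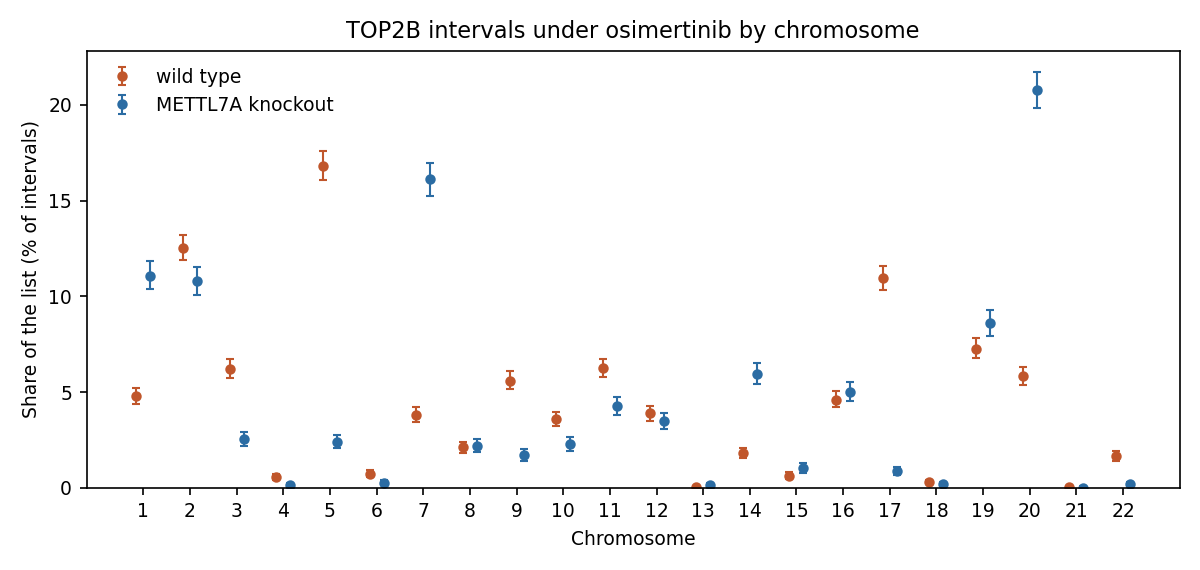
Share of each treated list (vertical axis, % of intervals) on chromosomes 1 to 22 (horizontal axis) for wild type and METTL7A knockout, with exact 95% intervals for counting error. Among chromosomes with at least 20 intervals, the knockout exceeds wild type by 2-fold or more on chromosomes 1, 7, 14 and 20, and wild type exceeds the knockout by as much on chromosomes 3, 4, 5, 6, 9, 17 and 22.

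The difference was regional. The part of copy number or of background coverage in it was not tested, and the H2A samples of the series were not used. Shares were compared in windows of 1 Mb that held at least 20 intervals in either list, with 0.5 intervals added to each count, and a ratio of at least 2 in either direction was called a difference. Of 209 such windows, 67 (32.1%) held a higher share in the knockout and 101 (48.3%) a lower share, 80.4% in all. Counting each called peak as 1 gave 61 windows higher and 56 lower of 140, so that 52.1% of the differences were toward the knockout by called peaks and 39.9% by intervals. Comparing counts in place of shares shifts the log2 ratio of each window by -0.43 and gave 62 windows higher and 111 lower. In the untreated pair 3 of 227 windows (1.32%) were higher and 30 (13.2%) lower, 14.5% in all. By called peaks the untreated counts were 25 higher and 23 lower of 194. Of the treated windows just past the threshold, chromosome 20 at 3 to 4 Mb held 23 wild-type and 38 knockout intervals, and chromosome 5 at 149 to 150 Mb held 32 and 11. Chromosome 10 at 45 to 46 Mb (14 and 21) and chromosome 12 at 6 to 7 Mb (68 and 25) fell just short of it.

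**Figure D3:**
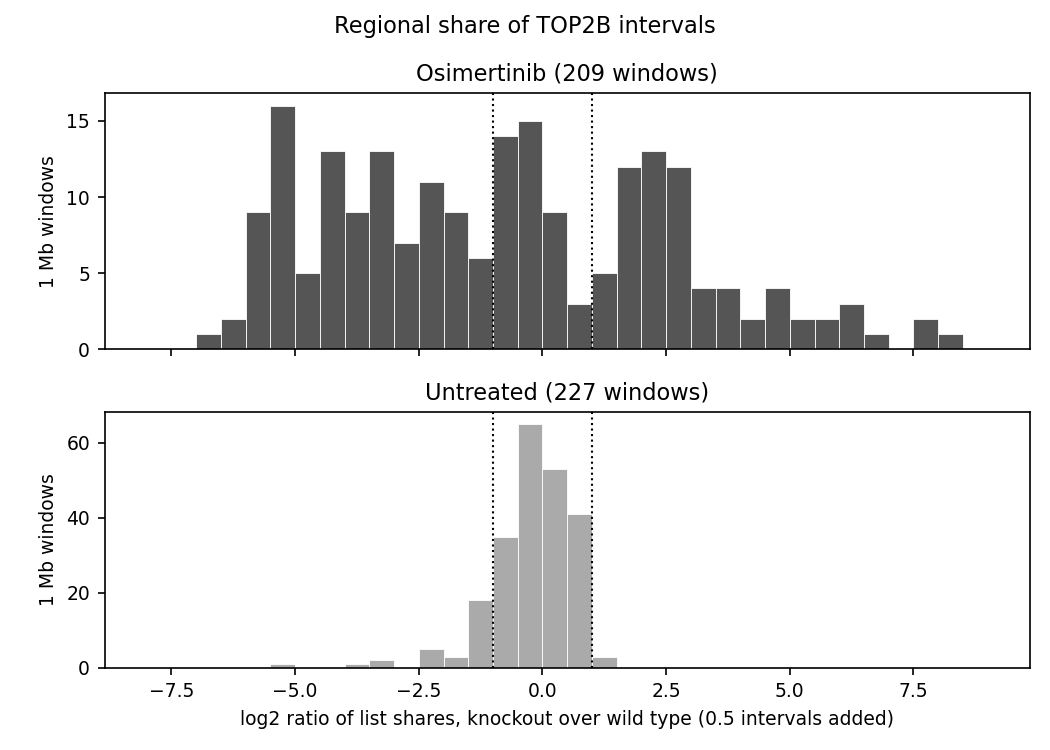
Number of 1 Mb windows (vertical axes) by the log2 ratio of list shares, knockout over wild type (horizontal axis), for the treated lists (upper panel, 209 windows) and the untreated lists (lower panel, 227 windows), with dotted lines at a 2-fold difference. Of the treated windows 80.4% lie outside the lines, and of the untreated windows 14.5%.

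Windows with higher shares in the knockout lay on 9 chromosomes: 20 on chromosome 20, 15 on chromosome 7, 9 on chromosome 14, 7 on chromosome 1, 6 on chromosome 19, 5 on chromosome 16, 2 each on chromosomes 2 and 10, and 1 on chromosome 11. Windows with lower shares lay on 14 chromosomes, with 22 on chromosome 5, 20 on chromosome 17, 12 on chromosome 9 and 11 on chromosome 19. The 41 windows within 2-fold lay mostly on chromosome 11 (12), chromosome 2 (10), chromosome 12 (5) and chromosome 8 (4). On chromosome 8 each of the 4 windows examined was within 2-fold.

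The 10 windows with the highest knockout share relative to wild type were on chromosomes 1, 7 and 16. In 7 of them the wild-type list held no interval. A fold is then given as a bound, the exact 95% limit, followed by the value with 3 intervals in place of 0, which leaves out the counting error of the other list. At 116 to 117 Mb of chromosome 1 there were 0 wild-type and 108 knockout intervals, at least 38.7-fold higher (48.4-fold with 3 in place of 0). At 115 to 116 Mb there were 0 and 69, at least 24.5-fold higher (30.9-fold). The neighbouring windows of chromosome 1 held 1 and 85 intervals at 114 to 115 Mb (ratio 114, 20.0 to 4564) and 2 and 97 at 117 to 118 Mb (65.2, 17.6 to 546). On chromosome 7 the counts were 0 and 73 at 68 to 69 Mb (at least 25.9-fold higher, and 32.7-fold with 3 in place of 0), 0 and 45 at 51 to 52 Mb (at least 15.7-fold higher, and 20.2-fold), 3 and 102 at 47 to 48 Mb (45.7, 15.2 to 225), and 0 and 24 at both 48 to 49 and 65 to 66 Mb (at least 8.09-fold higher, and 10.8-fold). On chromosome 16 they were 0 and 20 at 48 to 49 Mb (at least 6.63-fold higher, and 8.96-fold with 3 in place of 0). None of these windows was empty in an untreated list. Untreated wild type and untreated knockout had 87 and 104 intervals in the chromosome 1 window at 116 to 117 Mb, 101 and 128 in the chromosome 7 window at 68 to 69 Mb, and 52 and 32 in the chromosome 16 window.

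The 10 windows with the lowest knockout share held no knockout interval. The list had 4 windows on chromosome 17: 17 to 18 Mb with 67 wild-type intervals (at most 0.0761 times the wild-type share by the exact 95% limit, and 0.0602 times with 3 in place of 0), 76 to 77 Mb with 41, 80 to 81 Mb with 37 and 73 to 74 Mb with 35. It had 3 on chromosome 5, at 31 to 32 Mb with 48 (at most 0.107 times, and 0.0840 times), 38 to 39 Mb with 39 and 9 to 10 Mb with 35. The others were 80 to 81 Mb of chromosome 10 with 43 (at most 0.120 times, and 0.0938 times), 37 to 38 Mb of chromosome 22 with 39 (at most 0.133 times, and 0.103 times) and 61 to 62 Mb of chromosome 11 with 37 (at most 0.141 times, and 0.109 times). In all but 1 of these windows each untreated list held at most 18 intervals. Wild type and the knockout had 2 and 2 in the chromosome 17 window at 76 to 77 Mb, 0 and 0 in the chromosome 22 window, and 1 and 1 in the chromosome 5 window at 9 to 10 Mb. The exception was 17 to 18 Mb of chromosome 17, with 43 untreated wild-type and 9 untreated knockout intervals.

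Adjacent windows of 5 Mb that passed 2-fold in 1 direction were joined into segments. Of 135 windows of 5 Mb, 34 (25.2%) were higher and 67 (49.6%) lower in the knockout, 74.8% in all. They formed 16 segments with a higher knockout share, 170 Mb in all, and 30 with a lower share, 335 Mb in all. The 16 segments held 62.8% of the treated knockout list and 10.8% of the treated wild-type list. The 30 segments held 6.74% of the knockout list and 55.9% of the wild-type list. The untreated lists took no part in the choice of segments. The 16 segments held 44.5% of the untreated wild-type and 54.7% of the untreated knockout intervals, and the 30 segments 15.3 and 9.69%. The treated lists did, so the following values reuse the counts that chose the segments and are a description. In both sets the share of treated wild type lay farther from the untreated shares than that of the treated knockout. In 14 of the 16 segments the wild-type share was at least 2-fold lower treated than untreated, and in 21 of the 30 it was at least 2-fold higher. In the knockout the treated share was at least 2-fold higher than the untreated in 1 of the 16 segments and at least 2-fold lower in 0, and in the 30 segments the counts were 2 and 10.

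The segments with more knockout intervals began with chromosome 7. From 25 to 70 Mb it held 155 wild-type and 1009 knockout intervals (ratio of shares 8.75, 7.38 to 10.4), against 958 and 1092 untreated (1.41, 1.29 to 1.54). Within this stretch the difference was largest at 65 to 70 Mb, with 0 and 110 intervals, and at 45 to 50 Mb, with 9 and 226. It was smallest at 55 to 60 Mb, with 83 and 219. The 1 Mb window at 55 Mb held 69 and 159 treated and 95 and 153 untreated intervals. The first 10 Mb of chromosome 7 held 39 and 102 (3.51, 2.41 to 5.22), where the untreated ratio was below 1 (0.636, 0.534 to 0.755).

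Chromosome 20, which carries the kinase genes SRC and AURKA, also differed along its length. From 40 to 65 Mb it held 330 wild-type and 1242 knockout intervals (5.06, 4.48 to 5.73), the largest count of any segment with a higher knockout share, against 1963 and 1974 untreated (1.24, 1.17 to 1.32). The first 5 Mb held 49 and 110 (3.02, 2.14 to 4.31). Between them, 30 to 40 Mb leaned the other way without passing the threshold, with 73 and 29 intervals at 30 to 35 Mb and 52 and 24 at 35 to 40 Mb.

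The 110 to 120 Mb segment of chromosome 1 had the highest ratio of the named segments. It held 17 wild-type and 516 knockout intervals (40.8, 25.2 to 70.6, and 24.8 by called peaks), against 466 and 536 untreated. On chromosome 14 the counts were 85 and 216 at 75 to 80 Mb (3.41, 2.65 to 4.44) and 23 and 165 at 100 to 105 Mb (9.64, 6.21 to 15.6). On chromosome 16 they were 31 and 202 at 45 to 60 Mb (8.76, 5.98 to 13.2), and on chromosome 19 they were 191 and 589 at 50 to 60 Mb (4.14, 3.51 to 4.90). The untreated ratios of these 4 segments were 1.52, 1.49, 1.04 and 1.43.

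Segments with more wild-type intervals were led by the first 45 Mb of chromosome 5. Each of its 9 windows of 5 Mb had a lower knockout share, from 501 wild-type and 47 knockout intervals in the first 5 Mb to 59 and 1 at 40 to 45 Mb. In all it held 1302 and 73 (0.0753, 0.0587 to 0.0954, and 0.105 by called peaks). Untreated, the same stretch held 226 and 155, a ratio of 0.848 (0.687 to 1.05). At its far end the same chromosome differed less, with 119 and 51 treated intervals at 175 to 180 Mb, within 2-fold.

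On chromosome 19 the direction turned at 50 Mb. From 30 to 50 Mb there were 493 wild-type and 14 knockout intervals (0.0382, 0.0207 to 0.0646), and the window at 40 to 45 Mb held 117 and 0. The next window, 50 to 55 Mb, held 66 and 217. Chromosome 16 turned as well, with 172 and 19 at 25 to 35 Mb (0.148, 0.0872 to 0.239), 31 and 202 at 45 to 60 Mb, and 180 and 45 at 80 to 90 Mb (0.336, 0.237 to 0.468). On chromosome 17 the counts were 397 and 11 in the first 20 Mb (0.0372, 0.0184 to 0.0673) and 436 and 14 at 70 to 85 Mb (0.0431, 0.0234 to 0.0732). Both stretches of chromosome 17 were also lower in the untreated knockout, with 237 and 28 intervals (0.146, 0.0951 to 0.217) and 82 and 16 (0.241, 0.132 to 0.416).

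The other named segments with a lower knockout share lay on 7 chromosomes. Chromosome 9 from 115 to 145 Mb held 422 wild-type and 40 knockout intervals (0.127, 0.0897 to 0.176). Chromosome 3 from 180 to 200 Mb held 217 and 21 (0.130), and chromosome 10 from 70 to 85 Mb held 195 and 6 (0.0413, 0.0150 to 0.0916). Chromosome 1 from 230 to 240 Mb held 187 and 21 (0.151), on the chromosome whose 110 to 120 Mb leaned most toward the knockout. Chromosome 2 held 124 and 3 at 120 to 130 Mb (0.0325, 0.00661 to 0.0972) and 132 and 23 at 220 to 225 Mb (0.234). Chromosome 22 held 127 and 4 at 35 to 45 Mb (0.0423, 0.0114 to 0.111). Chromosome 11 held 127 and 39 at 60 to 65 Mb (0.413) and 110 and 29 at 75 to 80 Mb (0.354). At 220 to 225 Mb of chromosome 2 it was the knockout whose share differed by treatment. The stretch held 230 wild-type and 160 knockout intervals untreated, so that the treated knockout share was 0.243 times the untreated one (0.150 to 0.378) and the wild-type share 0.895 times (0.717 to 1.11).

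Regions that did not pass the threshold held many intervals of both lists. On chromosome 2, 235 to 240 Mb held 192 wild-type and 123 knockout intervals and 240 to 245 Mb held 227 and 184. On chromosome 12, which carries METTL7A, the first 5 Mb held 105 and 79 and 5 to 10 Mb held 129 and 63. On chromosome 8, 140 to 145 Mb held 123 and 85. In these windows of 5 Mb the shares of the lists were within 2-fold of each other. Counterparts were counted by class for windows of 1 Mb, and in the 41 within 2-fold most intervals still had none.

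The 3 classes of 1 Mb window show how the other lists fared where the treated pair differed. In the 67 windows with higher knockout shares, lay 55.3% of the treated knockout list (54.2 to 56.5), 45.1% of the untreated knockout (44.2 to 46.0), 32.8% of the untreated wild type (32.1 to 33.6) and 9.29% of the treated wild type (8.72 to 9.89). In the 101 windows with lower knockout shares, the treated knockout had 3.79% of its list (3.36 to 4.26), the untreated knockout 5.91%, the untreated wild type 9.64% and the treated wild type 39.5% (38.5 to 40.5). In the 41 windows within 2-fold the 4 shares ranged from 12.5 to 15.3%. The untreated ratio of knockout to wild type in the 3 classes was 1.37 (1.32 to 1.43) where the treated knockout was higher, 0.896 (0.838 to 0.958) within 2-fold, and 0.613 (0.560 to 0.671) where it was lower. Treated over untreated, the wild-type share was 0.283 times (0.263 to 0.304) in the first class and 4.10 times (3.86 to 4.36) in the last, and the knockout share 1.23 times (1.18 to 1.28) and 0.643 times (0.557 to 0.740). The treated lists set the classes, so treated shares and their ratios to untreated ones are a description, and the untreated shares were not used in the choice.

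**Figure D4:**
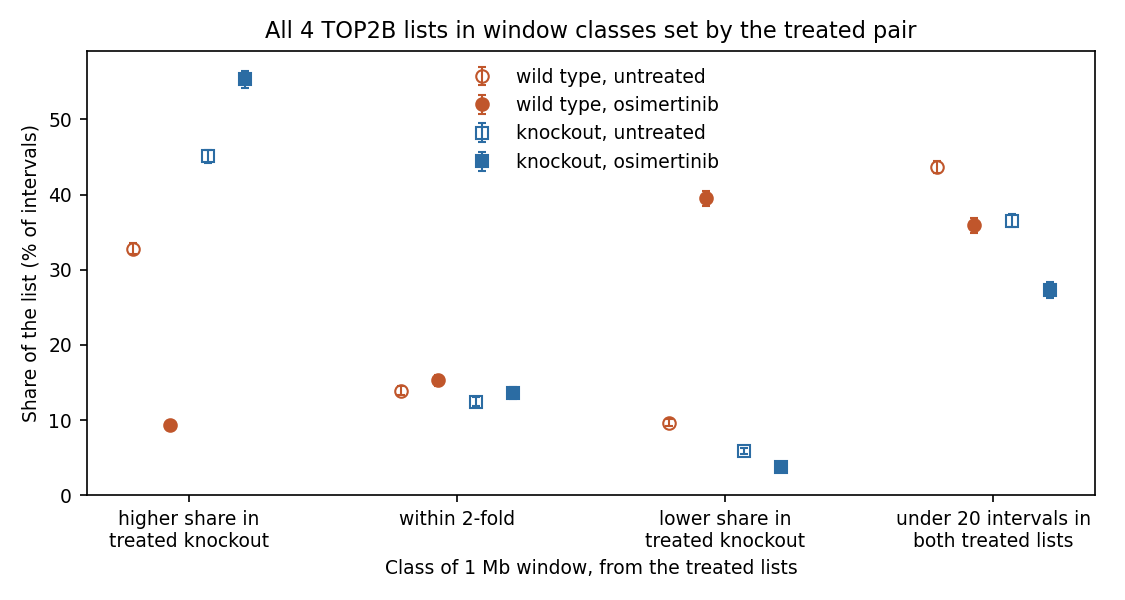
Share of each of the 4 lists (vertical axis, % of intervals) in classes of 1 Mb window defined from the treated pair (horizontal axis): 67 windows with a higher share in the treated knockout, 41 within 2-fold, 101 with a lower share, and the windows with under 20 intervals in both treated lists. Bars are exact 95% intervals for counting error. Treated wild type is the lowest of the lists in the first class (9.29%) and the highest in the third (39.5%). The order of the treated lists in these classes was fixed by the choice of windows.

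The number of windows past the threshold in both pairs was limited by the untreated pair. Among the 127 windows that reached 20 intervals in a list of each pair, 87 were past 2-fold treated and 10 untreated. Of the 10 past 2-fold untreated, 7 were also past it treated, near the share of 87 in all 127 windows. Of these 7 windows, 0 had opposite directions. They were 5 windows of chromosome 17 and 116 to 117 Mb of chromosome 9, lower in the knockout, and 17 to 18 Mb of chromosome 20, higher in the knockout with 9 and 23 treated and 22 and 39 untreated intervals. These windows were named after their values were seen.

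The heights of called peaks differed little between the classes of window. The median maximum of knockout intervals was 1.13 times the list median in windows with higher knockout shares, 1.0 times within 2-fold and 0.875 times in windows with lower ones. For wild-type intervals the values were 1.0, 1.0 and 1.09 times. Where neighbouring classes differ here, they differ by 1 step of coverage. Median widths were 1100 to 1200 bp in each class of both treated lists. In the untreated lists, the windows with higher treated knockout shares had median maxima of 1.17 times in wild type and 1.2 times in the knockout.

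The number of intervals with a counterpart was nearly equal in both lists within each class of window, so the class, which is set by the counts of the lists, also sets the order of the shares below. The numbers were 437 in wild type and 438 in the knockout where the knockout was higher, 309 and 305 within 2-fold, and 86 and 88 where it was lower. In windows with higher knockout shares 48.8% of the wild-type intervals (45.5 to 52.2) and 11.0% of the knockout intervals (10.1 to 12.1) had a counterpart. In windows with lower knockout shares the shares were 2.26% (1.81 to 2.78) and 32.4% (26.8 to 38.3). In windows within 2-fold they were 20.9% (18.9 to 23.1) and 31.3% (28.4 to 34.3), so most intervals had no counterpart there either. The median distance of intervals without a counterpart in these windows was 9.2 kb in wild type and 5.3 kb in the knockout. By chromosome the highest share of wild-type intervals with a counterpart, among those with at least 20 intervals, was on chromosome 7 at 31.4% (26.7 to 36.4), and that of the knockout was on chromosome 17 at 40.3% (28.1 to 53.6). Wild type had 2.37% on chromosome 17 (1.54 to 3.48), and the knockout had 10.2% on chromosome 7 (8.53 to 12.1).

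Intervals with a counterpart were wider and came from higher called peaks. In wild type their median width was 1300 bp against 1150 bp for those without, and in the knockout 1350 bp against 1150 bp. Median maxima were 1.09 and 1.13 times the list median in wild type and the knockout, against 1.0 in both lists for intervals without a counterpart. Each of these differences is 1 step of coverage. The share with a counterpart went from 7.89% of the wild-type intervals of up to 800 bp (6.57 to 9.39) to 36.9% of those over 3000 bp (28.3 to 46.1). In the knockout it went from 9.46% (8.16 to 10.9) to 49.7% (42.2 to 57.3). A wider interval meets the rule of a 1 bp overlap more readily, so a rise with width is partly built into the rule. Pieces of split called peaks had a counterpart more often than intervals that were alone in theirs, with 13.6 and 7.36% in wild type and 19.1 and 11.5% in the knockout.

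The share with a counterpart was highest for the highest called peaks. Wild-type intervals with a maximum up to the list median had a counterpart in 7.90% of cases (7.20 to 8.64), those between 1.5 and 2 times in 26.3% (22.2 to 30.8), those between 2 and 5 times in 66.7% (49.8 to 80.9), and those over 5 times in 30 of 30 cases (88.4 to 100%). In the knockout the shares were 11.6% (10.6 to 12.7), 24.6% (20.7 to 28.8), 46.5% (34.5 to 58.7) and 20 of 21 cases, or 95.2% (76.2 to 99.9). Maxima over 2 times the median were rare, with 69 wild-type and 92 knockout intervals. Pieces of a split called peak share 1 maximum, so these intervals are not independent cases and the 95% limits do not allow for that. By called peaks, 92.6% of the wild-type and 76.2% of the knockout peaks over 2 times the median had a counterpart. The 99th percentile was 2 times the list median in wild type and 2.125 times in the knockout. Whether the highest called peaks lie in repeated sequence was not examined.

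**Figure D5:**
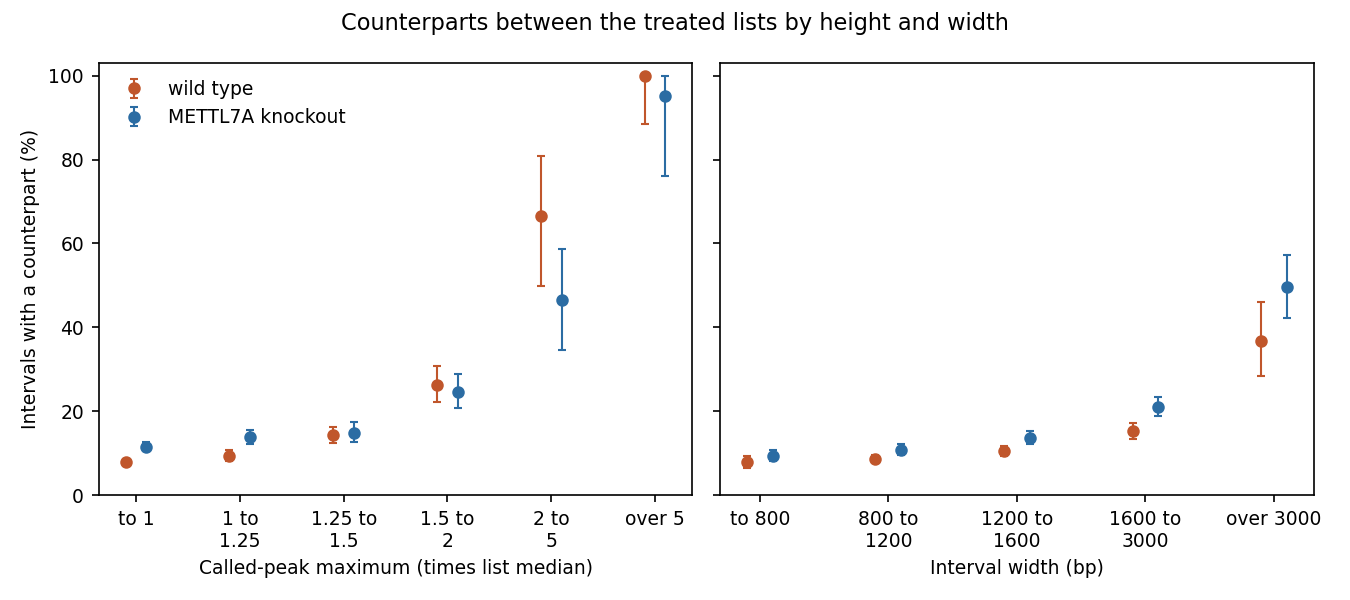
Share of intervals with a counterpart in the other treated list (vertical axis, %) by the maximum of the called peak in multiples of the list median (left) and by interval width in bp (right), for wild type and METTL7A knockout, with exact 95% intervals for counting error. The share is 7.90 and 11.6% for maxima up to the list median. It is 100 and 95.2% for the 30 wild-type and 21 knockout intervals over 5 times the median.

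Shared intervals overlapped for much of the shorter interval, while the maxima of their called peaks were often apart. With an overlap of 50% of both intervals required, 95.4% of the wild-type and 93.85% of the knockout intervals had no counterpart. With 1 bp these shares were 89.5 and 86.0%. There were 1073 overlapping pairs of intervals, from 869 pairs of called peaks. The median overlap was 750 bp (interquartile range 450 to 1050), or 86.5% of the shorter interval. The midpoints of the regions of maximum coverage were a median of 2725 bp apart (950 to 5550), within 500 bp in 143 pairs (16.5%) and more than 5 kb apart in 249 (28.7%). In 21 pairs of called peaks, on 11 chromosomes, both maxima exceeded 2 times the list median, and in 18 of these they lay within 500 bp. Across the 869 pairs, Spearman's rho of the maxima was 0.280, and 0.225 over the 848 pairs without those 21. This is a description across positions of 1 list pair, and called peaks that share a partner enter more than 1 pair.

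The highest shared places were at the same position to within 100 bp of maximum. At 61968551 to 61969950 of chromosome 7 the maximum was 181 times the list median in wild type and 251 times in the knockout. At 121484301 to 121485500 of chromosome 1 it was 119 and 121 times, and at 58776201 to 58779750 of chromosome 6 it was 193 and 83.8 times. At 46417201 to 46418200 and 46385901 to 46387550 of chromosome 16 it was 40.9 and 40.2 times, and 28 and 29.8 times. Each of these 5 places also had a counterpart in both untreated lists. Whether they lie in repeated sequence, where reads can pile up, was not examined.

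Intervals without a counterpart came from far lower called peaks than these places, with 1 exception. Other pieces of the same called peaks could have a counterpart. In the knockout the highest was at 46409101 to 46409950 of chromosome 16, at 22.4 times the list median. It was 0.25 kb from a wild-type interval and near the shared places just named. This interval was 1 of 3 pieces of its called peak. Among the 21 knockout intervals over 5 times the list median, it alone had no counterpart. The others, counting 1 interval per called peak, reached 2.75 times on chromosome 7 (55298901 to 55299850), 2.63 times on chromosome 1 (116034901 to 116036050), likewise 2.63 times on chromosome 20 (29651651 to 29652250), then 2.5 times on chromosome 1 (115860251 to 115861650). The 2 on chromosome 1 were 1145 and 970 kb from the nearest wild-type interval. In wild type they reached 3.82 times on chromosome 5 (49429801 to 49430650), 2.64 times on chromosome 1 (145025201 to 145026000), 2.45 times on chromosome 17 (22250801 to 22251800), 2.36 times on chromosome 5 (772901 to 774250) and 2.27 times on chromosome 17 (21216701 to 21217750). Each of these 5 was 0.4 to 3.3 kb from a knockout interval. The interval at 772901 of chromosome 5 was the only one of these 10 without a counterpart in either untreated list.

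Treated knockout intervals coincided with untreated ones more often than treated wild-type intervals did. Of the knockout intervals, 59.0% (57.9 to 60.2) had a counterpart in the untreated wild type and 42.5% (41.4 to 43.7) in the untreated knockout. Of the wild-type intervals, 28.7% (27.8 to 29.6) had one in the untreated wild type and 16.6% (15.9 to 17.4) in the untreated knockout. With an overlap of 50% of both intervals the shares were 8.01 and 14.1% for the knockout and 4.63 and 5.32% for wild type, so that the order of the untreated lists turned in both genotypes and the order of the genotypes did not. The untreated wild-type intervals cover 47.5 Mb and the untreated knockout intervals 22.4 Mb. Their median widths were 2600 and 1650 bp, against 1200 bp in treated wild type and 1150 bp in the treated knockout. A treated interval of median width cannot cover 50% of an untreated wild-type interval of median width. The turn in order is thus partly built into the rule. The same untreated lists served both genotypes. No counterpart in any of the other 3 lists was found for 64.7% of the treated wild-type intervals (63.7 to 65.6) and 30.0% of the treated knockout intervals (29.0 to 31.1). A counterpart in all of the other 3 was found for 553 (5.74%) and 532 (7.42%).

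This difference between the genotypes varied with the region. In windows within 2-fold, 54.8% of the treated wild-type and 59.7% of the treated knockout intervals had a counterpart in the untreated wild type. In windows with higher knockout shares the order was the other way, with 84.1% of the 895 wild-type and 74.4% of the 3965 knockout intervals. In windows with lower knockout shares it was 15.6% of the 3804 wild-type and 31.6% of the 272 knockout intervals. Of the 1302 treated wild-type intervals in the first 45 Mb of chromosome 5, 13.3% had a counterpart in the untreated wild type, and of the 493 at 30 to 50 Mb of chromosome 19, 3.85% had. Of the treated knockout intervals, 60.9% had a counterpart in the untreated wild type at 25 to 70 Mb of chromosome 7, 67.1% at 110 to 120 Mb of chromosome 1, 78.3% at 40 to 65 Mb of chromosome 20 and 92.6% at 75 to 80 Mb of chromosome 14.

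Intervals with a counterpart between the treated lists also had untreated ones more often. Among treated wild-type intervals with a knockout counterpart, 76.8% (74.1 to 79.4) overlapped an untreated wild-type interval, against 23.1% (22.2 to 24.0) of those without. Among treated knockout intervals the shares were 76.4% (73.6 to 79.0) with and 56.2% (54.9 to 57.4) without a wild-type counterpart. For the untreated knockout the shares with and without were 59.9 and 11.6% in treated wild type and 59.6 and 39.7% in the treated knockout.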

How the data were processed

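TOP2B was profiled by CUT&RUN in 4 conditions, each with 2 replicate libraries and 1 list. The build is GRCh37, and Bowtie2 2.4.2, SEACR, bedtools 2.30, SAMtools 1.16, deepTools 3.5.1, FastQC and Trimmomatic are the tools named, without their settings, per the submitters' processing notes. No source used here gives the peak caller's mode or control, which bear on which peaks entered each list. The area of a called peak is a deposited score, and its maximum a deposited signal in coverage units of unknown scaling. The authors' maximum belongs to the called peak, and the region holding it was outside the listed interval in 70.2% (wild type) and 50.5% (knockout) of treated cases.

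Intervals were collapsed to called peaks where chromosome, area, maximum and its region were equal. Counts were made with Python 3.11.15, pandas 2.3.3 and SciPy 1.17.1, and the code was tested on simulated data. Windows took intervals by midpoint. Named by rule were the 10 windows with the highest and the 10 with the lowest ratio, and segments and chromosomes with over 100 intervals. So were the 5 highest shared places and, per list, 5 intervals without a counterpart. These intervals were those from the highest called peaks, with 1 interval per called peak. Members, lists and rules were chosen with earlier results of these data known. Alternatives covered overlap, unit, list length, window and threshold. Left out were chromosome X, the 8 H2A samples, and genes and sequences, including a planned count over named genes, for want of a GRCh37 reference. Lists per library were not used here, so the pooling of replicates could not be checked.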

Additional observations from a re-analysis of the deposited data

Results flagged for a closer look

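Chromosome X was outside the comparison of chromosomes 1 to 22 and is noted because its counts also differed. It held 324 intervals in the treated knockout and 21 in treated wild type, against 351 and 262 in the untreated knockout and untreated wild type. The difference was not tested.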

How the results depend on the processing

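No paired analysis was possible because each condition has 1 list for its 2 replicates, and leaving out a replicate could not be run for the same reason. The share of treated wild-type intervals without a counterpart was 89.5%, and 95.4% with an overlap of 50% of both intervals, 85.7% with gaps of up to 1000 bp, 87.9% by called peaks, 90.9% with maxima at or above the list median, 88.6% with lists of equal length and 91.6% without the 10 densest windows. For the treated knockout, at 86.0%, the values in the same order were 93.85, 80.1, 82.6, 88.8, 88.7 and 87.95%. Windows higher in the knockout numbered 67, but 34 of 5 Mb and 42 with at least 40 intervals. Windows lower in the knockout numbered 101, but 56 by called peaks, 67 of 5 Mb, 176 with at least 10 and 28 with at least 40 intervals, and 60 with maxima at or above the median, each from another number of windows tested. The ratio of list lengths was 0.886 by called peaks. By called peaks, 92.6% of the wild-type and 76.2% of the knockout peaks over 2 times the median had a counterpart, against 81.2 and 57.6% of intervals, and the median distance from wild type was 161 kb. The following alternatives were added after the data had been seen. By called peaks, counterparts in the untreated wild type and untreated knockout were 31.8 and 18.9% for treated wild type, and 60.6% in the untreated wild type for the treated knockout. With an overlap of 50% of both they were 4.63, 5.32, 8.01 and 14.1%. In the untreated pair, shares without a counterpart were 64.5% in wild type and 42.6% in the knockout by called peaks, and 87.8 and 84.96% with an overlap of 50%, and 25 windows were higher in the knockout by called peaks against 3. The causes were not tested. None of the 24 named segments or 20 named windows changed direction or came under 2-fold by called peaks, by covered length or, for windows, in 5 Mb windows. They were named for their ratios in these same lists. Most of the named windows held no interval of 1 of the lists, so called peaks and covered length could hardly reverse them.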
